A study of Homo sapiens with 9 samples.

Results

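The WNT ligands, their Frizzled receptors and the proteins that modulate them were followed at the RNA level in the DMS273 line, which derives from a human small cell lung cancer. Members were taken by gene symbol: every WNT, FZD, SFRP1 to SFRP5, DKK1 to DKK4, LGR4 to LGR6 and RSPO1 to RSPO4 gene, together with LRP5, LRP6, ROR1, ROR2, FRZB, WIF1, AXIN1, AXIN2, CTNNB1, NKD1, NKD2, RNF43, ZNRF3, LEF1, TCF7, TCF7L1 and TCF7L2. That selection finds 66 of the 67140 rows of the count table, which carry 61 distinct symbols. The other 5 rows are second copies of WNT3, WNT9B, LRP6 and NKD2 on alternate sequences and hold no count in any library. The selection goes by symbol alone and applies no measured value, but the symbols were chosen with earlier results of these data known.

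RNA was sequenced after rRNA depletion in 9 libraries, 3 in each group. The ATG7/SQSTM1 KO cells carry CRISPRv2 knockouts of both ATG7 and SQSTM1, the ATG7 KO cells carry the ATG7 knockout alone, and the control cells carry a scrambled guide (genotype WT in the labels). All cells were grown in the same medium with serum, and no further treatment is given. ATG7 encodes an enzyme needed to form autophagosomes, and SQSTM1 encodes a cargo receptor that autophagy degrades. The groups therefore ask what the loss of autophagy changes and which of those changes differ when SQSTM1 is also lost. No group carries the SQSTM1 knockout alone, so an effect of SQSTM1 loss by itself cannot be told apart. The labels do not say whether a knockout line is 1 clone or a pool of edited cells, nor whether replicate libraries were made from separate cultures. The p-values therefore measure only the spread between these libraries, which may be technical.

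WNT proteins are secreted lipid-modified ligands. They bind Frizzled receptors together with LRP5 or LRP6, which stops the AXIN-based destruction complex from degrading beta-catenin, and beta-catenin then acts in the nucleus with the LEF/TCF factors. Other WNTs, such as WNT5A and WNT11, are known mainly for signalling through ROR receptors and the cytoskeleton without beta-catenin. Secreted antagonists (SFRPs, FRZB, WIF1, DKKs) block ligand or co-receptor, whereas R-spondins and their LGR receptors keep Frizzleds on the surface by removing the ubiquitin ligases RNF43 and ZNRF3. In the lung the pathway is known for its part in branching and epithelial repair.

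The 9 libraries hold 28675576 to 34222098 counts each, with 26075 to 27439 genes detected, and no library was left out. ATG7 was at 11.2, 10.4 and 10.2 CPM (counts normalized to library size with TMM factors) in ATG7/SQSTM1 KO, 12.0, 9.99 and 13.0 in ATG7 KO and 28.1, 26.4 and 26.8 in control libraries. SQSTM1 was at 55.3, 48.8 and 51.6 CPM in ATG7/SQSTM1 KO, 388, 396 and 389 in ATG7 KO and 380.2, 375 and 373 in control libraries, so the targeted transcripts match the labels. The 14 small cell lung cancer markers checked summed to 774 to 804 CPM in ATG7/SQSTM1 KO, 606 to 619.9 CPM in ATG7 KO and 702 to 711 CPM in control libraries, and none of them was at 0 in any group. Of the 13 tested, 6 rose (46.2%) and 5 fell (38.5%) in ATG7/SQSTM1 KO against control, where 19% and 19.6% of all tested genes were called in those directions. In ATG7 KO against control 4 rose (30.8%) and 8 fell (61.5%), against 28.4% and 28.3% of all genes. The median log2 changes were 0.28 and -1.18. In ATG7 KO against control the risers were YAP1, EPCAM, KRT8 and KRT18, and NEUROD1, INSM1, CHGA, CHGB, SYP and NCAM1 were among those that fell. NEUROD1 averaged 238 CPM in ATG7/SQSTM1 KO, 73.3 in ATG7 KO and 194 in control, and KRT18 49.3 CPM in ATG7/SQSTM1 KO, 70.2 in ATG7 KO and 18.3 in control. Of the marker lists for other cell types, 11 fibroblast markers summed to 460.2 to 481 CPM in ATG7/SQSTM1 KO, 749 to 791 CPM in ATG7 KO and 206 to 223 CPM in control libraries, with none at 0. Against control, 7 of the 10 tested rose (70%) and 1 fell (10%, FAP) in ATG7/SQSTM1 KO. In ATG7 KO, 6 rose (60%) and none fell. For both, the shares of all genes are those just given. Between the knockouts 3 were higher (30%, DCN, PDGFRA and POSTN) and 5 lower (50%, COL1A1, COL3A1, LUM, PDGFRB and FAP) in ATG7/SQSTM1 KO, against 30.5% and 29.9% of all genes. The 10 blood markers summed to 4.05 to 4.69, 9.54 to 10.2 and 4.30 to 5.64 CPM, with LYZ, CD3E, MS4A1 and HBB at 0 in every group. Of the 4 tested, PTPRC, CD68 and CD14 rose (75%) and HBA1 fell (25%) in ATG7 KO against control. In ATG7/SQSTM1 KO against control 2 rose (50%, PTPRC and CD14) and 2 fell (50%, CD68 and HBA1). The shares of all genes are those given above for the same comparisons. The 7 endothelial markers summed to 15.9 to 16.2, 12.7 to 13.7 and 12.4 to 13.9 CPM with none at 0, most of it EGFL7 (averages 13.6, 9.16 and 10.4 CPM). Of the 5 tested, PECAM1, VWF and TEK rose (60%) and none fell in ATG7 KO against control. In ATG7/SQSTM1 KO against control EGFL7 rose (20%) and PECAM1 fell (20%). The 7 keratinocyte and airway markers summed to 3.26 to 3.76, 10.3 to 10.7 and 4.27 to 4.67 CPM with SCGB1A1 at 0 in every group. Of the 2 tested, TP63 rose (50%) in ATG7 KO against control and none was called in ATG7/SQSTM1 KO against control. The part of these marker shifts in the results that follow was not tested, and in bulk RNA fewer cells expressing a gene and less RNA per cell cannot be told apart.

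Of the 61 annotated members, 49 had enough counts to be tested. The 12 that did not are the ligands WNT1, WNT2, WNT3A, WNT7A, WNT8A and WNT9B, the receptor FZD10, the R-spondins RSPO1 and RSPO3, and the antagonists DKK2, DKK4 and WIF1. None of these had more than 10 counts in any library, and WNT8A, DKK4 and WIF1 had none at all. The filter asked for 0.324 CPM in at least 3 libraries. All 9 libraries were over that level for 44 of the tested members. RNF43 passed only through the ATG7 KO libraries, and WNT16 and DKK1 only through the ATG7/SQSTM1 KO libraries, so some difference between groups was built into their selection.

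In ATG7/SQSTM1 KO against control, 26 of the 49 members were called at an edgeR adjusted p under 0.05 (53.1%), 16 higher and 10 lower, while 38.6% of all tested genes were called. That is 32.7% of the members higher, against 19% of all genes, and 20.4% lower, against 19.6%. The members' median log2 change was 0.006, against -0.008 over all genes. In ATG7 KO against control, 32 were called (65.3%), 9 higher and 23 lower, against 56.7% of all genes. Here 46.9% of the members were called lower, against 28.3% of all genes, and 18.4% were called higher, against 28.4%. The median log2 change was -0.29 for the members and -0.017 for all genes. In ATG7/SQSTM1 KO against ATG7 KO, 41 were called (83.7%), 31 higher and 10 lower, against 60.5% of all genes. Called higher were 63.3% of the members, against 30.5% of all genes, and called lower 20.4%, against 29.9%, and the medians were 0.41 and 0.019. These shares were not tested against each other. The members were chosen with earlier results of these data known. RNF43, WNT16 and DKK1, which passed the filter through 1 group, are counted among them. The comparisons share libraries: both comparisons with control use the same control libraries, and the third uses the libraries of both knockouts, so a member low in ATG7 KO enters 2 of them with opposite sign.

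Changes of at least 2-fold were fewer. Against control, 5 of the 49 tested members were at least 2-fold higher and 1 was at least 2-fold lower in ATG7/SQSTM1 KO (2.2% and 1.66% of all genes). For ATG7 KO against control the numbers were 1 higher and 9 lower (4.22% and 8.28% of all genes), and between the knockouts 14 higher and 4 lower in ATG7/SQSTM1 KO (9.07% and 3.86% of all genes). DKK1 is among the 5 and the 14, WNT16 among the 14 and RNF43 among the 4. DKK1 and WNT16 passed the filter only through the ATG7/SQSTM1 KO libraries and RNF43 only through the ATG7 KO libraries. Some difference was therefore built into the selection of these members. Only SFRP4 and WNT3 were called in none of the 3 comparisons by edgeR.

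**Figure D1:**
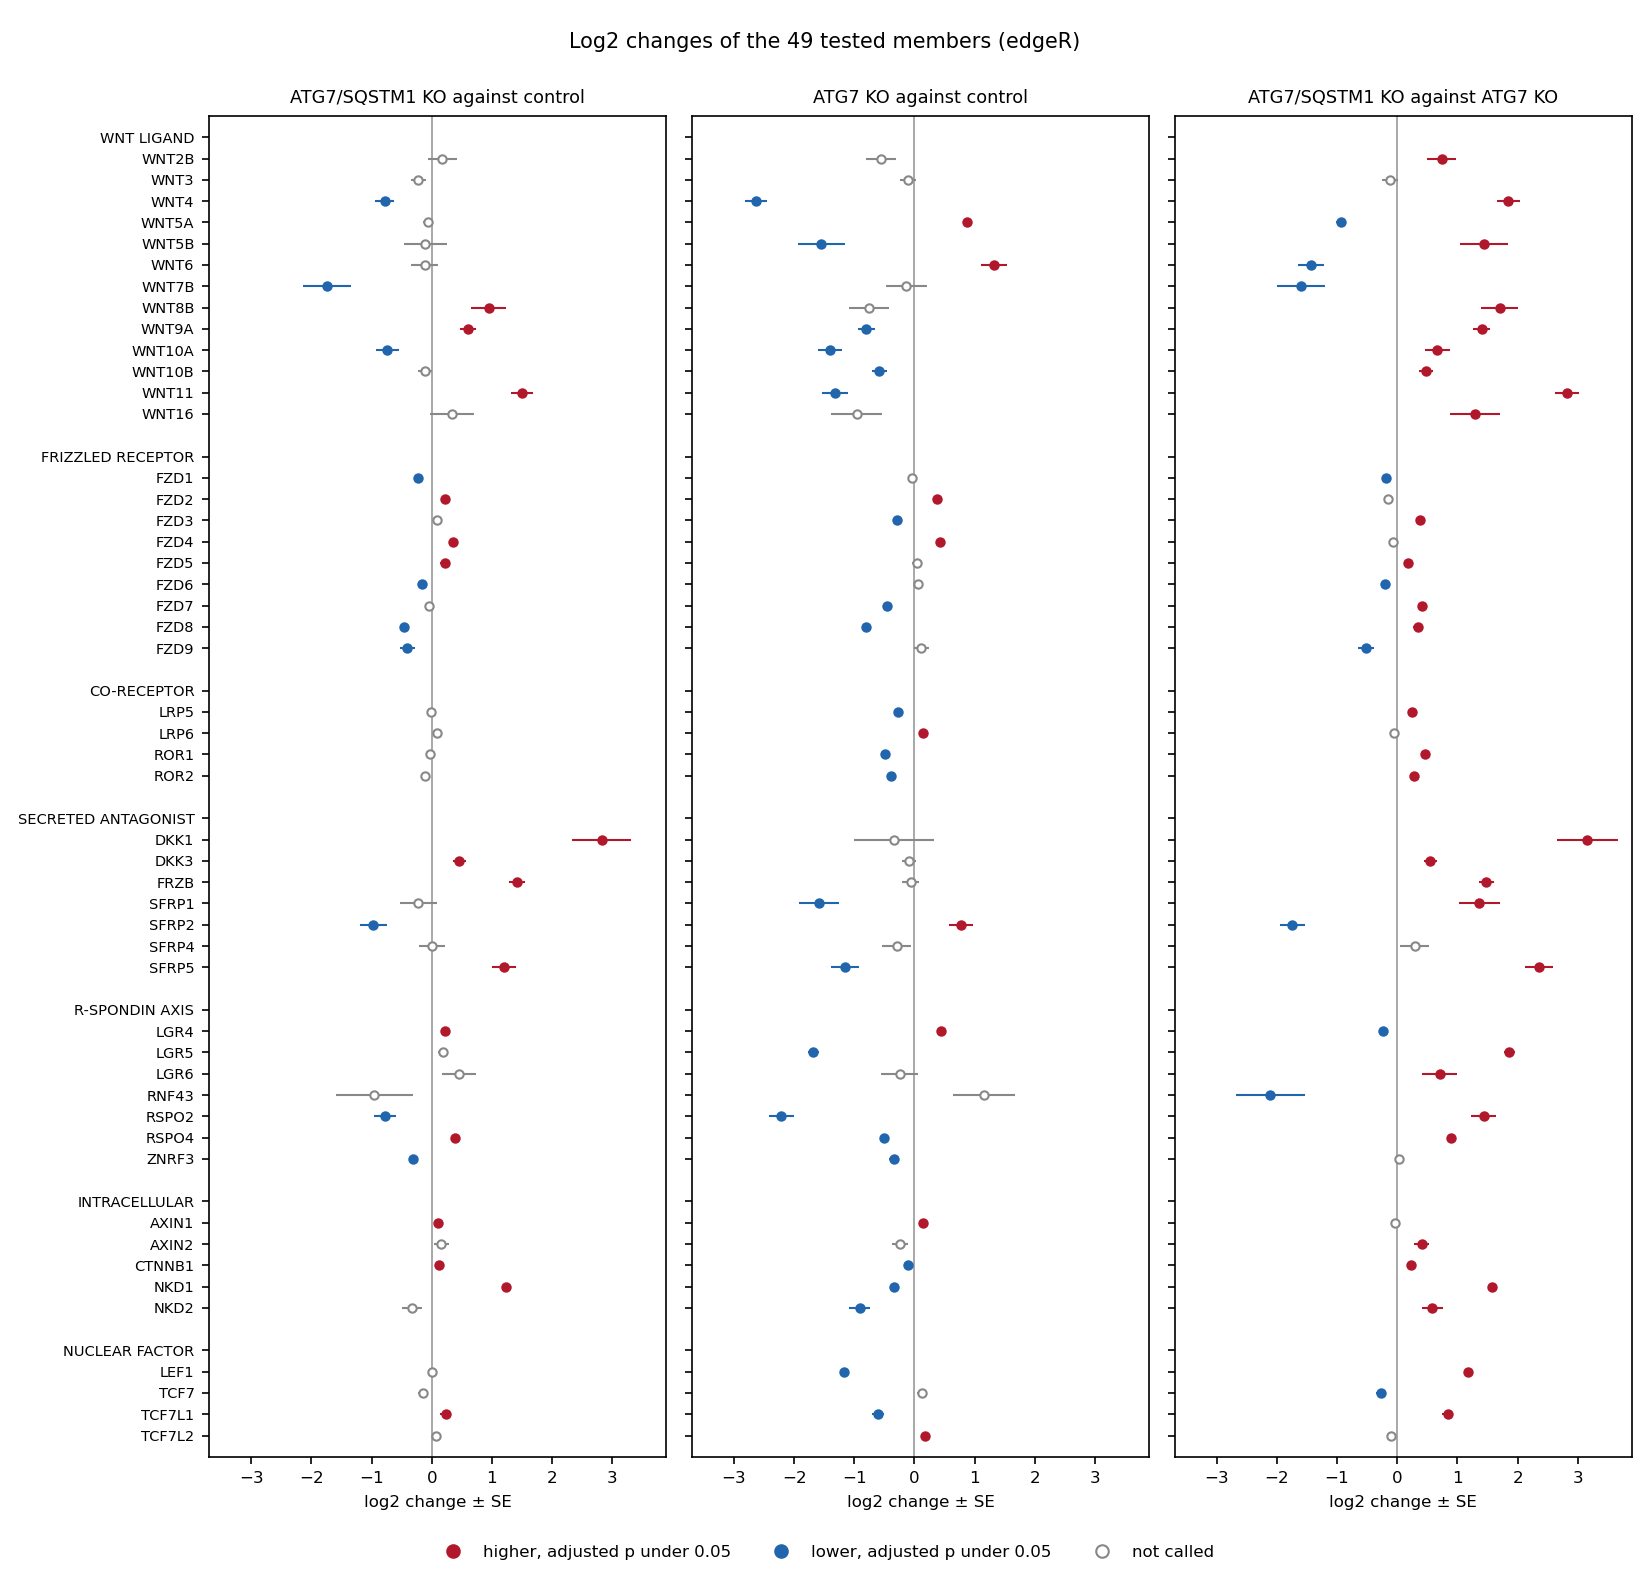
Log2 change of each tested member with its standard error (x axis) in the 3 comparisons, members ordered by role down the page. Filled points passed an edgeR adjusted p of 0.05 (red higher, blue lower in the group named first). The middle panel holds 23 blue and 9 red points, the right panel 10 blue and 31 red.

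Among the WNT ligands, 13 of 19 were tested. Against control, 6 fell in ATG7 KO (WNT4, WNT5B, WNT9A, WNT10A, WNT10B and WNT11) and 2 rose (WNT5A and WNT6), which is 46.2% and 15.4% of the ligands tested, against 28.3% and 28.4% of all genes. WNT8B, WNT9A and WNT11 rose in ATG7/SQSTM1 KO against control, whereas WNT4, WNT7B and WNT10A fell, 23.1% of the ligands in each direction against 19% and 19.6% of all genes. Between the knockouts 9 ligands (69.2%) were higher and 3 (23.1%) lower in ATG7/SQSTM1 KO, against 30.5% and 29.9% of all genes. WNT16, among the 9, passed the filter only through the ATG7/SQSTM1 KO libraries.

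WNT11 (ENSG00000085741, chromosome 11, 76186325 to 76210736, minus strand), a ligand of the pathway branch without beta-catenin, had its highest level in the double knockout. Coordinates here and below are those of GENCODE 29 on GRCh38. It was at 4.49, 3.95 and 3.79 CPM in ATG7/SQSTM1 KO, 0.444, 0.570 and 0.702 CPM in ATG7 KO and 1.50, 1.45 and 1.38 CPM in control libraries, and no library of one group overlapped another group. The log2 change was 1.50 (SE 0.18, edgeR adjusted p = 1.13e-06) in ATG7/SQSTM1 KO against control, -1.32 (SE 0.22, edgeR adjusted p = 2.44e-05) in ATG7 KO against control and 2.82 (SE 0.21, edgeR adjusted p = 1.2e-10) between the knockouts. WNT9A and WNT8B were ordered in the same way. WNT9A was at 6.88, 7.21 and 7.17 CPM in ATG7/SQSTM1 KO, 3.24, 2.31 and 2.46 in ATG7 KO and 4.03, 4.86 and 5.09 in control libraries, which gave 0.60 (edgeR adjusted p = 0.00102) for the double knockout and -0.80 (edgeR adjusted p = 5.97e-05) for ATG7 KO, each against control. Its 3 groups did not overlap. WNT8B, a ligand described mainly from the developing brain, was at 0.991, 1.10 and 1.27 CPM in ATG7/SQSTM1 KO, 0.307, 0.302 and 0.415 in ATG7 KO and 0.641, 0.586 and 0.512 in control libraries. The groups did not overlap, and its log2 change was 0.94 (edgeR adjusted p = 0.0114) in ATG7/SQSTM1 KO against control, -0.76 (edgeR adjusted p = 0.057) in ATG7 KO against control and 1.70 (edgeR adjusted p = 5.98e-05) between the knockouts. The call against control was lost in DESeq2 (adjusted p = 0.0533) and without ATG7/SQSTM1 KO replicate 3 (edgeR adjusted p = 0.0604).

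WNT4 (ENSG00000162552, chromosome 1, 22117305 to 22143969, minus strand), a ligand best known from kidney and gonad development, showed the largest fall of any tested member in ATG7 KO against control. It was at 4.40, 3.81 and 3.12 CPM in ATG7/SQSTM1 KO, 0.819, 1.11 and 1.21 in ATG7 KO and 6.01, 5.79 and 7.75 in control libraries, with no overlap between any of the groups. It was 6.20-fold lower in ATG7 KO than in control, a log2 change of -2.63 (SE 0.18, edgeR adjusted p = 7.84e-11), and 1.72-fold lower in ATG7/SQSTM1 KO than in control, at -0.78 (SE 0.16, edgeR adjusted p = 0.000508). WNT10A, a ligand of skin appendages and teeth, was at 2.16, 1.54 and 1.82 CPM in ATG7/SQSTM1 KO, 1.30, 0.872 and 1.31 in ATG7 KO and 3.08, 3.07 and 3.07 in control libraries. It was also lower in both knockouts, with log2 changes of -0.74 (edgeR adjusted p = 0.00394) in ATG7/SQSTM1 KO and -1.40 (edgeR adjusted p = 3.74e-06) in ATG7 KO. The call between the knockouts, 0.67 (edgeR adjusted p = 0.00812), was lost without ATG7/SQSTM1 KO replicate 1 (edgeR adjusted p = 0.0585) and without ATG7 KO replicate 2 (0.0592).

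WNT5A (ENSG00000114251, chromosome 3, 55465715 to 55490539, minus strand), the best known ligand of the ROR receptors, and WNT6 (ENSG00000115596, chromosome 2, 218859821 to 218874233, plus strand) were the 2 ligands that rose in ATG7 KO. WNT5A was at 13.9, 12.6 and 11.4 CPM in ATG7/SQSTM1 KO, 24.0, 25.3 and 23.5 in ATG7 KO and 12.5, 13.1 and 14.1 in control libraries. The 3 ATG7 KO libraries stood above all others, while the other 2 groups overlapped. The log2 change was 0.88 (SE 0.075, edgeR adjusted p = 1.76e-09) in ATG7 KO against control, -0.94 (SE 0.075, edgeR adjusted p = 5.08e-10) between the knockouts and -0.060 (SE 0.077, edgeR adjusted p = 0.59) in ATG7/SQSTM1 KO against control. WNT6 was at 1.17, 1.58 and 1.05 CPM in ATG7/SQSTM1 KO, 3.79, 2.98 and 3.45 in ATG7 KO and 1.19, 1.14 and 1.76 in control libraries, with the same arrangement. It was 2.49-fold higher in ATG7 KO than in control, a log2 change of 1.32 (SE 0.21, edgeR adjusted p = 1.58e-05), and 2.69-fold lower in ATG7/SQSTM1 KO than in ATG7 KO, at -1.43 (SE 0.21, edgeR adjusted p = 5.1e-06).

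WNT6 and WNT10A are neighbours on chromosome 2, on the same strand and 6.13 kb apart, and they are the one pair of tested members with under 100 kb between them. WNT6 was higher and WNT10A lower in ATG7 KO against control. The 250 bases before the WNT6 start (chr2:218859555-218859804, plus strand, RefSeq on GRCh38.p14) are shown because WNT6 is the ligand with the largest rise in ATG7 KO. No part is in capitals, since the short LEF/TCF core CTTTG, or its opposite-strand reading, which is spelled CAAAG, does not occur in this stretch, whose GC content is 79.2% against a median of 58% over all promoters in the table.
WNT6: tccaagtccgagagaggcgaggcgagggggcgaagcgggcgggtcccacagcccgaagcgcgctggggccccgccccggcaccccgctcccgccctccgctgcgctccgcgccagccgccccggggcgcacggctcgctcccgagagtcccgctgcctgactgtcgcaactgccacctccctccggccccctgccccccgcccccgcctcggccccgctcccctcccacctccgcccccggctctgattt

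WNT5B and WNT10B fell in ATG7 KO and were near control in the double knockout. WNT5B was at 3.41, 2.95 and 3.06 CPM in ATG7/SQSTM1 KO, 1.54, 1.58 and 0.383 in ATG7 KO and 2.90, 3.24 and 4.03 in control libraries. ATG7 KO replicate 3 was the lowest of the 9. The log2 change in ATG7 KO against control was -1.55 (SE 0.40, edgeR adjusted p = 0.00929) with all libraries and -1.11 (edgeR adjusted p = 0.0001) without that replicate. Between the knockouts it was 1.44 (edgeR adjusted p = 0.0124), and 1.00 (0.000235) without that replicate. WNT10B, a ligand of the beta-catenin branch, was at 7.84, 7.24 and 7.58 CPM in ATG7/SQSTM1 KO, 5.36, 6.47 and 4.47 in ATG7 KO and 8.30, 8.79 and 7.33 in control libraries. Its log2 change was -0.58 (edgeR adjusted p = 0.000319) in ATG7 KO against control, 0.48 (edgeR adjusted p = 0.0019) between the knockouts and -0.11 (edgeR adjusted p = 0.529) in ATG7/SQSTM1 KO against control.

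WNT2B was at 1.31, 1.41 and 1.27 CPM in ATG7/SQSTM1 KO, 0.887, 0.805 and 0.702 in ATG7 KO and 1.43, 0.930 and 1.15 in control libraries. It was higher in ATG7/SQSTM1 KO than in ATG7 KO, at 0.74 (edgeR adjusted p = 0.0134), a call that DESeq2 did not make (adjusted p = 0.0528) and that was lost without ATG7 KO replicate 3 (edgeR adjusted p = 0.0553). The exons of WNT2B overlap those of ST7L, at 13.2 CPM in ATG7 KO, on the opposite strand, and since the strand setting of the counting is not given its values are uncertain. The 3 remaining tested ligands were WNT3, at 4.08 to 5.51 CPM with no call, and 2 genes with few counts, WNT7B, at 0.103 to 1.10 CPM, and WNT16, at 0.171 to 0.686 CPM. WNT7B fell in the double knockout, at -1.74 (edgeR adjusted p = 0.00128) against control and -1.60 (edgeR adjusted p = 0.00149) against ATG7 KO. WNT16 was higher in ATG7/SQSTM1 KO than in ATG7 KO, at 1.29 (edgeR adjusted p = 0.00984), but it passed the filter only through the ATG7/SQSTM1 KO libraries.

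**Figure D2:**
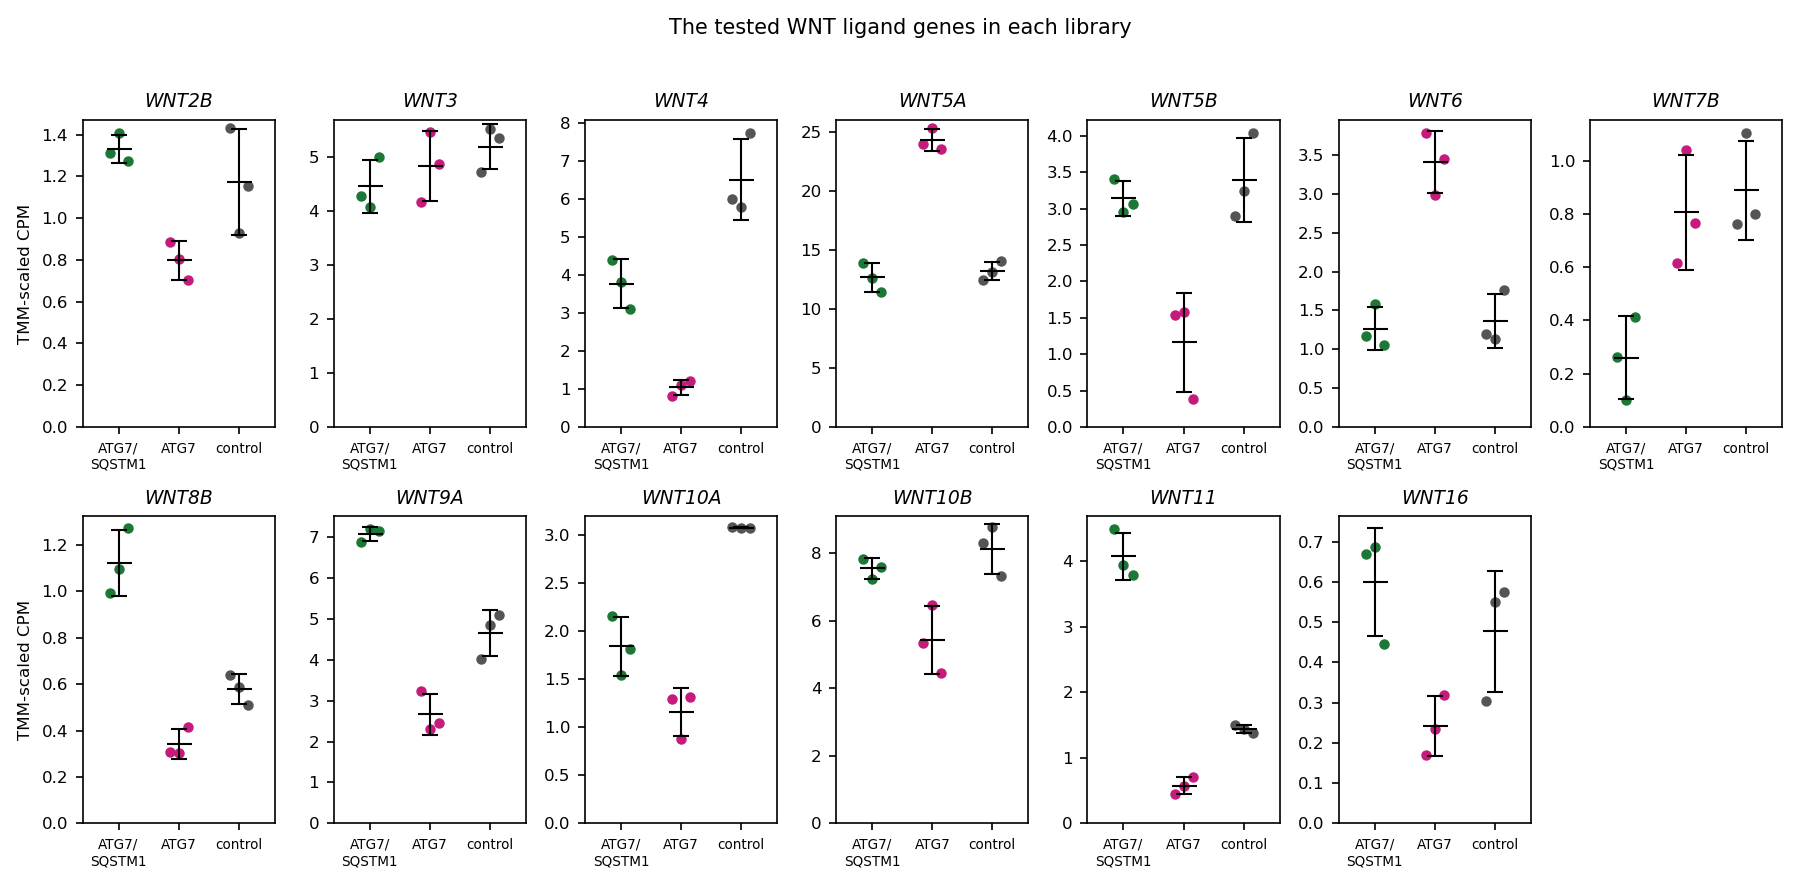
TMM-scaled CPM of the 13 tested WNT ligands (y axes from 0, own scale for each gene) in every library of ATG7/SQSTM1 KO, ATG7 KO and control; points are libraries, bars the mean and SD of 3. WNT5A and WNT6 are highest and WNT4 and WNT11 lowest in the ATG7 KO libraries.

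Per kilobase of exon, which allows levels of different genes to be set side by side, the tested and untested ligands together summed to 12.9 ± 0.499 CPM per kb in ATG7/SQSTM1 KO, 10.7 ± 0.508 in ATG7 KO and 12.6 ± 0.611 in control libraries (SD, n = 3 each). The shares of single ligands in that sum were as follows. WNT5A held 13.3% of it in ATG7/SQSTM1 KO, 30.6% in ATG7 KO and 14.2% in control, and WNT6 held 5.78% in ATG7/SQSTM1 KO, 18.7% in ATG7 KO and 6.32% in control. WNT11 held 13.2% in ATG7/SQSTM1 KO, 2.23% in ATG7 KO and 4.77% in control. WNT4 held 6.46% in ATG7/SQSTM1 KO, 2.16% in ATG7 KO and 11.4% in control, and WNT9A held 13.9% in ATG7/SQSTM1 KO, 6.26% in ATG7 KO and 9.29% in control. WNT10B held 22.3% in ATG7/SQSTM1 KO, 19.1% in ATG7 KO and 24.7% in control, so the ligand with the largest share was WNT10B in ATG7/SQSTM1 KO and in control, and WNT5A in ATG7 KO. These shares were computed per library, follow from the gene values already given and carry no test. They divide by the union of all annotated exons of a gene. Which transcripts these cells express was not measured, so the order of the ligands may depend on that choice of length. The same limit holds for the other values per kilobase below.

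**Figure D3:**
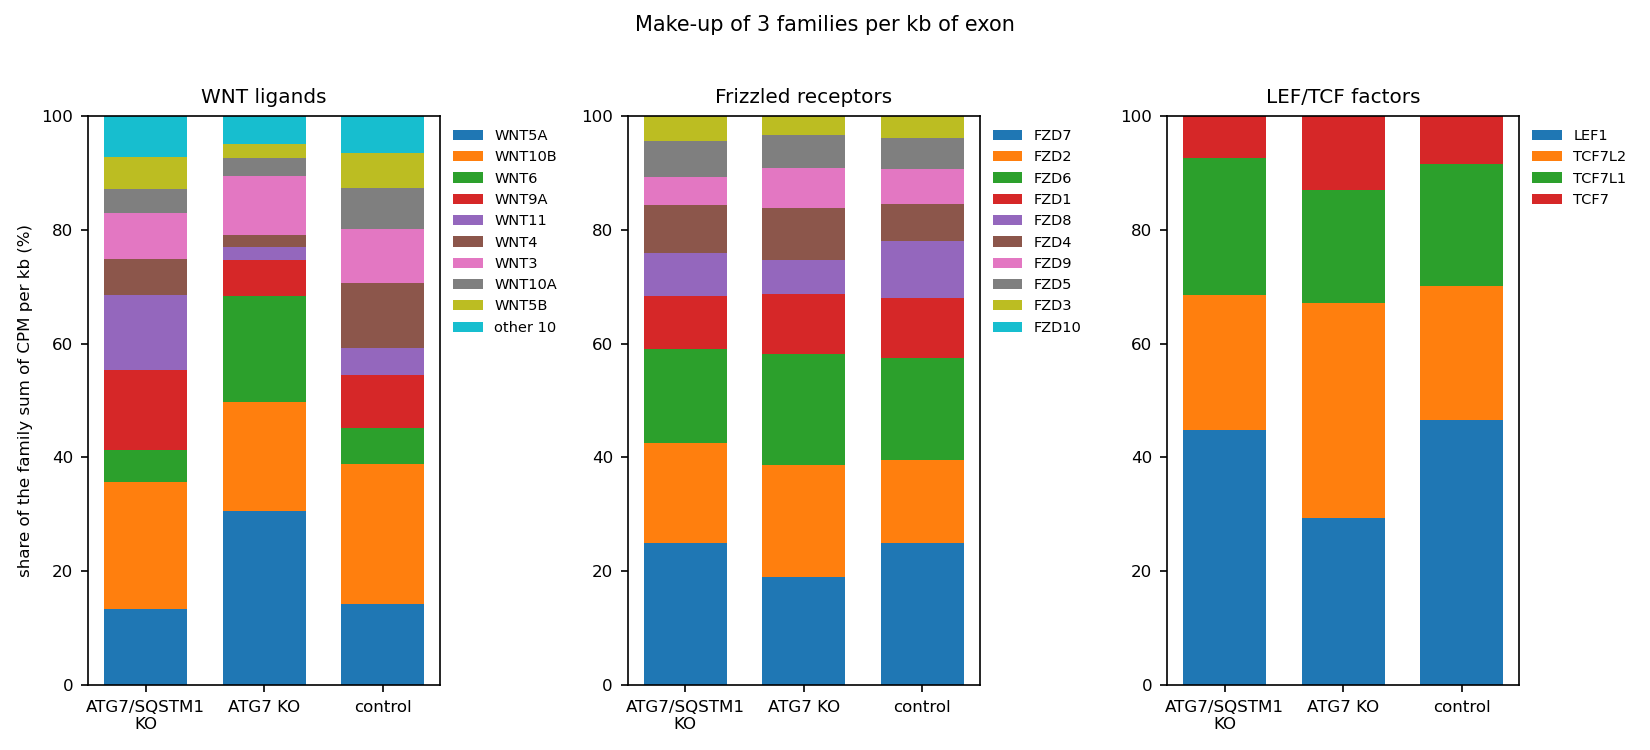
Mean share of each gene in its family's summed CPM per kb of exon (y axes, percent, stacked) for the WNT ligands, Frizzled receptors and LEF/TCF factors in ATG7/SQSTM1 KO, ATG7 KO and control, 3 libraries each. WNT5A takes 13.3% of the ligand sum in ATG7/SQSTM1 KO, 30.6% in ATG7 KO and 14.2% in control, and LEF1 takes 44.9% of the LEF/TCF sum in ATG7/SQSTM1 KO, 29.3% in ATG7 KO and 46.6% in control.

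The Frizzled receptors, which bind WNT through their extracellular cysteine-rich domain, changed little in size. Of the 10, 9 were tested and none moved 2-fold in any comparison. FZD2, FZD4 and FZD5 rose and FZD1, FZD6, FZD8 and FZD9 fell in ATG7/SQSTM1 KO against control, with log2 changes from -0.46 to 0.35, which is 33.3% higher and 44.4% lower. FZD2 and FZD4 rose and FZD3, FZD7 and FZD8 fell in ATG7 KO against control, from -0.80 to 0.42, or 22.2% higher and 33.3% lower. Between the knockouts FZD3, FZD5, FZD7 and FZD8 were higher and FZD1, FZD6 and FZD9 lower in ATG7/SQSTM1 KO, from -0.52 to 0.41, or 44.4% higher and 33.3% lower. The shares over all genes are those given for the ligands.

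FZD8 was the receptor with the largest change. It was at 14.1, 12.3 and 12.3 CPM in ATG7/SQSTM1 KO, 10.0, 10.7 and 9.73 in ATG7 KO and 17.6, 17.8 and 17.5 in control libraries, and the 3 groups did not overlap. Its log2 change was -0.46 (SE 0.074, edgeR adjusted p = 3.79e-05) in ATG7/SQSTM1 KO and -0.80 (SE 0.075, edgeR adjusted p = 8.63e-09) in ATG7 KO, each against control, and 0.34 (SE 0.076, edgeR adjusted p = 0.000534) between the knockouts. FZD7, the most abundant Frizzled per kilobase in ATG7/SQSTM1 KO and in control, was at 10.8 CPM per kb in ATG7/SQSTM1 KO, 8.10 in ATG7 KO and 11.1 in control, with a log2 change of -0.46 (SE 0.052, edgeR adjusted p = 1.48e-07) in ATG7 KO against control. FZD7 made up 25.0%, 19.0% and 25.0% of the summed Frizzled level in those groups, FZD2 17.6%, 19.7% and 14.6%, and FZD6 16.5%, 19.4% and 17.9%. The sum itself was 43.1 ± 1.54 CPM per kb in ATG7/SQSTM1 KO, 42.5 ± 1.18 in ATG7 KO and 44.4 ± 0.751 in control (SD, n = 3 each). The exons of FZD4 overlap those of PRSS23 on the opposite strand, which was at 9.11 CPM in ATG7/SQSTM1 KO, 29.9 in ATG7 KO and 8.45 in control, and those of FZD6 overlap BAALC-AS1, so both receptors' values are uncertain.

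The co-receptors LRP5 and LRP6, which pair with Frizzleds in the beta-catenin branch, and ROR1 and ROR2, receptor tyrosine kinases that bind WNT5A, were all tested. None was called in ATG7/SQSTM1 KO against control, where 38.6% of all genes were called. All 4 were called in ATG7 KO against control, all by less than 2-fold, where 56.7% of all genes were called. LRP5 was at 63.8, 64.3 and 63.1 CPM in ATG7/SQSTM1 KO, 53.8, 51.7 and 55.2 in ATG7 KO and 65.8, 65.0 and 62.9 in control libraries. The ATG7 KO libraries lay below all others, and the log2 change was -0.27 (SE 0.038, edgeR adjusted p = 2.85e-06) in ATG7 KO against control, 0.25 (SE 0.038, edgeR adjusted p = 6.13e-06) between the knockouts and -0.018 (SE 0.037, edgeR adjusted p = 0.743) in ATG7/SQSTM1 KO against control. LRP6 was at 56.7, 55.9 and 53.8 CPM in ATG7/SQSTM1 KO, 55.1, 58.9 and 59.3 in ATG7 KO and 53.1, 54.3 and 49.6 in control libraries. Its rise in ATG7 KO, 0.14 (SE 0.043, edgeR adjusted p = 0.0075), was lost when libraries were scaled by their totals (edgeR adjusted p = 0.0518) and without control replicate 3 (0.0573). ROR1 averaged 21.6 ± 0.830 CPM in ATG7/SQSTM1 KO, 15.7 ± 0.610 in ATG7 KO and 22.0 ± 0.237 in control (SD, n = 3 each), and ROR2 averaged 41.4 ± 1.86 CPM in ATG7/SQSTM1 KO, 34.2 ± 1.55 in ATG7 KO and 44.6 ± 1.38 in control. The fall in ATG7 KO against control was -0.49 (edgeR adjusted p = 5.27e-07) for ROR1 and -0.38 (edgeR adjusted p = 4.74e-07) for ROR2, in the group where the ligand WNT5A was highest.

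Of the secreted antagonists 7 of 10 were tested. DKK1, DKK3, FRZB and SFRP5 rose (57.1%) and SFRP2 fell (14.3%) in ATG7/SQSTM1 KO against control, against 19% and 19.6% of all genes. SFRP1 and SFRP5 fell (28.6%) and SFRP2 rose (14.3%) in ATG7 KO against control, against 28.3% and 28.4% of all genes. Between the knockouts DKK1, DKK3, FRZB, SFRP1 and SFRP5 were higher (71.4%) and SFRP2 lower (14.3%) in ATG7/SQSTM1 KO, against 30.5% and 29.9% of all genes. The 57.1% and the 71.4% both include DKK1, which passed the filter only through the ATG7/SQSTM1 KO libraries. Part of these shares was therefore built in by the selection. SFRP4, at 0.921 to 1.55 CPM, was not called.

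DKK1 (ENSG00000107984, chromosome 10, 52314296 to 52318042, plus strand), which blocks LRP5 and LRP6 and is itself a known target of beta-catenin, had the largest fold change of the tested members in ATG7/SQSTM1 KO against control and against ATG7 KO, on few counts. It had 55, 38 and 32 counts in the ATG7/SQSTM1 KO libraries, 4, 0 and 9 in the ATG7 KO libraries and 8, 3 and 6 in the control libraries. In CPM that is 1.60, 1.30 and 1.02 in ATG7/SQSTM1 KO, 0.136, 0 and 0.287 in ATG7 KO and 0.244, 0.103 and 0.192 in control libraries. The double knockout libraries stood above the other 6, which overlapped each other. DKK1 passed the filter only through the double knockout libraries, so some difference was built into its selection. Its adjusted p-values for that group take no account of this. The log2 change was 2.82 (SE 0.49, edgeR adjusted p = 0.000135) in ATG7/SQSTM1 KO against control, 3.16 (SE 0.51, edgeR adjusted p = 2.75e-05) between the knockouts and -0.34 (SE 0.67, edgeR adjusted p = 0.693) in ATG7 KO against control. With so few counts outside the double knockout the size of the fold is known loosely: leaving out 1 library at a time or changing the settings gave 2.56 to 3.11 against control and 2.59 to 4.19 against ATG7 KO.

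FRZB (ENSG00000162998, chromosome 2, 182833275 to 182867162, minus strand), a Frizzled-related protein that binds WNT outside the cell, was at 8.37, 8.44 and 7.17 CPM in ATG7/SQSTM1 KO, 2.66, 2.68 and 3.22 in ATG7 KO and 3.14, 3.03 and 2.79 in control libraries. The double knockout libraries stood above all others, and ATG7 KO and control overlapped. The log2 change was 1.42 (SE 0.13, edgeR adjusted p = 1.8e-08) in ATG7/SQSTM1 KO and -0.064 (SE 0.14, edgeR adjusted p = 0.718) in ATG7 KO, each against control. DKK3, a divergent member of the DKK family, averaged 7.71 ± 0.645 CPM in ATG7/SQSTM1 KO, 5.27 ± 0.521 in ATG7 KO and 5.61 ± 0.0376 in control (SD, n = 3 each), with 0.46 (edgeR adjusted p = 0.00207) in ATG7/SQSTM1 KO against control. SFRP5 (ENSG00000120057, chromosome 10, 97766751 to 97771952, minus strand), a secreted Frizzled-related protein, was at 2.89, 2.95 and 2.52 CPM in ATG7/SQSTM1 KO, 0.58, 0.503 and 0.542 in ATG7 KO and 1.31, 0.965 and 1.34 in control libraries, with no overlap between the groups. It was 2.30-fold higher in ATG7/SQSTM1 KO than in control, at 1.20 (SE 0.20, edgeR adjusted p = 7.26e-05), and 2.22-fold lower in ATG7 KO than in control, at -1.15 (SE 0.24, edgeR adjusted p = 0.000304).

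DKK1 and SFRP5 lie on chromosome 10, far apart, and both rose in the double knockout. The 250 bases before their starts (RefSeq, GRCh38.p14) are shown because DKK1 is the one of the pair known as a LEF/TCF target. The stretch before DKK1 (chr10:52314031-52314280, plus strand, GC content 62.8%) holds 3 copies of the short core on either strand, in capitals. The stretch before SFRP5 (chr10:97772000-97772249, minus strand, GC content 76.8%) holds none.
DKK1: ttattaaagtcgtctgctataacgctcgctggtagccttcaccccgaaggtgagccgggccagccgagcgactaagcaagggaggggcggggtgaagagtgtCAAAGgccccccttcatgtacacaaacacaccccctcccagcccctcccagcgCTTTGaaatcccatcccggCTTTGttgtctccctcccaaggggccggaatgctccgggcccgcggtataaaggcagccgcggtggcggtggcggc
SFRP5: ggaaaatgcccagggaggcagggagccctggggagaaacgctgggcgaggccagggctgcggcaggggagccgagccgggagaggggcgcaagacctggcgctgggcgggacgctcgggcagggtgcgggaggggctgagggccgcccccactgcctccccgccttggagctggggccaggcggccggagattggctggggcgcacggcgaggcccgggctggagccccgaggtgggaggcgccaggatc
Over all members with an entry in the promoter table, 43 genes with 52 windows of 300 bases (250 before the start and 50 after it), 15 windows held the short core on either strand (28.8%), against 47.5% of all 35116 windows. The longer LEF/TCF motif CTTTGAT, whose opposite-strand reading is spelled ATCAAAG and which contains the short core, was in 0 of the 52 and in 2.62% of all windows. A match is a description of these letters only.

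SFRP1 and SFRP2 moved in opposite directions in ATG7 KO, and ATG7 KO replicate 3 stood apart from the other 2 libraries of its group in both. SFRP1 was at 8.40, 9.44 and 9.18 CPM in ATG7/SQSTM1 KO, 2.39, 2.31 and 5.71 in ATG7 KO and 9.86, 11.2 and 10.4 in control libraries. The log2 change in ATG7 KO against control was -1.59 (SE 0.33, edgeR adjusted p = 0.00598) with all libraries and -2.14 (edgeR adjusted p = 5.08e-11) without replicate 3. SFRP2 was at 1.20, 1.20 and 1.24 CPM in ATG7/SQSTM1 KO, 3.45, 3.02 and 5.71 in ATG7 KO and 2.23, 2.41 and 2.50 in control libraries, and its 3 groups did not overlap. The log2 change in ATG7 KO against control was 0.77 (SE 0.20, edgeR adjusted p = 0.0024) with all libraries and 0.46 (edgeR adjusted p = 0.0449) without replicate 3. SFRP2 fell in ATG7/SQSTM1 KO against control, at -0.97 (SE 0.22, edgeR adjusted p = 0.00127).

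**Figure D4:**
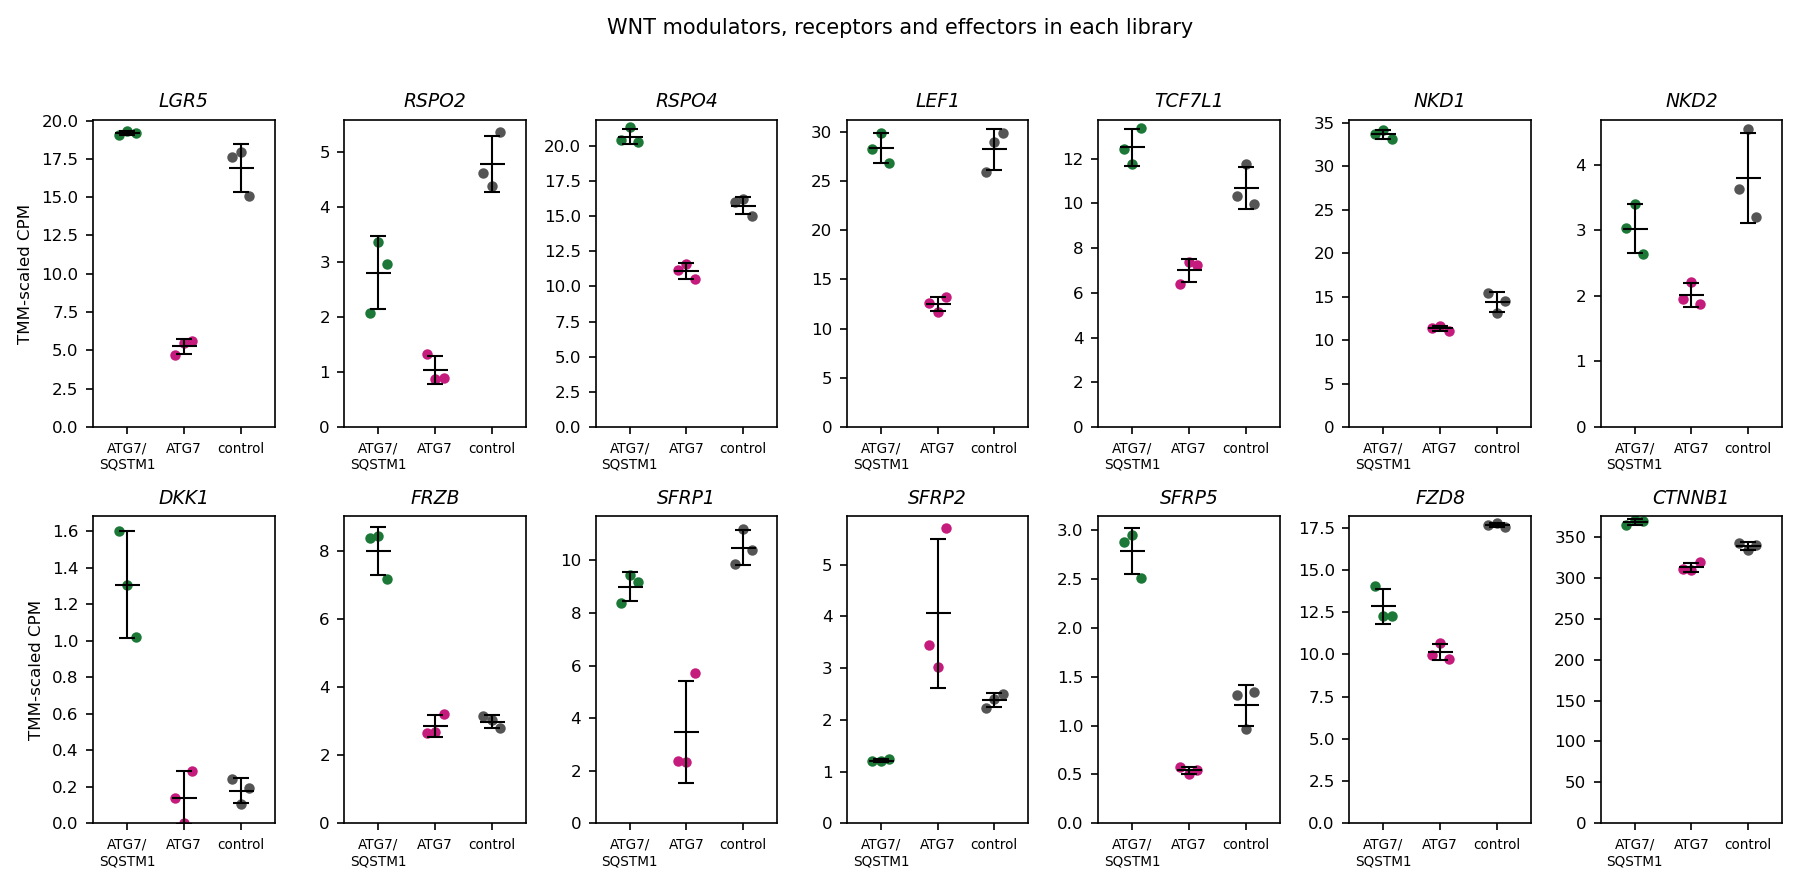
TMM-scaled CPM (y axes from 0, own scale for each gene) of modulators named in the text in every library of ATG7/SQSTM1 KO, ATG7 KO and control; points are libraries, bars the mean and SD of 3. NKD1, FRZB and DKK1 are highest in ATG7/SQSTM1 KO, and LGR5 and LEF1 are lowest in ATG7 KO.

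In the R-spondin axis 7 of 9 members were tested. LGR5 (ENSG00000139292, chromosome 12, 71439770 to 71586310, plus strand), an R-spondin receptor, stem cell marker and beta-catenin target, was at 19.0, 19.3 and 19.2 CPM in ATG7/SQSTM1 KO, 4.71, 5.50 and 5.58 in ATG7 KO and 17.6, 17.9 and 15.1 in control libraries. The ATG7 KO libraries lay far below the other 6. It was 3.20-fold lower in ATG7 KO than in control, a log2 change of -1.68 (SE 0.087, edgeR adjusted p = 4.65e-13), and 3.64-fold higher in ATG7/SQSTM1 KO than in ATG7 KO, at 1.86 (SE 0.086, edgeR adjusted p = 7.19e-14). Against control the double knockout was at 0.18 (SE 0.078, edgeR adjusted p = 0.0666), which passed the threshold in 3 of 13 alternatives (edgeR adjusted p from 0.0414 to 0.0490). LGR4, the most abundant of the 3 receptors per kilobase, went the other way in ATG7 KO: it averaged 37.4 ± 0.321 CPM in ATG7/SQSTM1 KO, 43.9 ± 0.906 in ATG7 KO and 32.2 ± 1.24 in control (SD, n = 3 each), with 0.45 (edgeR adjusted p = 1.41e-08) in ATG7 KO against control. LGR6 was at 1.69, 1.30 and 1.18 CPM in ATG7/SQSTM1 KO, 0.819, 1.21 and 0.542 in ATG7 KO and 0.702, 1.17 and 1.18 in control libraries, and every pair of groups overlapped. Its call between the knockouts, 0.70 (edgeR adjusted p = 0.0436), was lost in 6 of 13 alternatives, and without ATG7 KO replicate 3 the log2 change was 0.45 (edgeR adjusted p = 0.219).

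RSPO2 (ENSG00000147655, chromosome 8, 107899316 to 108083648, minus strand), an R-spondin ligand with roles in lung and limb development, was at 2.07, 3.36 and 2.96 CPM in ATG7/SQSTM1 KO, 1.33, 0.872 and 0.893 in ATG7 KO and 4.61, 4.38 and 5.35 in control libraries, with no overlap between the groups. It was 4.63-fold lower in ATG7 KO than in control, at -2.21 (SE 0.21, edgeR adjusted p = 8e-09), and 1.71-fold lower in ATG7/SQSTM1 KO than in control, at -0.78 (SE 0.19, edgeR adjusted p = 0.00208). RSPO4, an R-spondin known from nail development, was at 20.4, 21.3 and 20.3 CPM in ATG7/SQSTM1 KO, 11.2, 11.6 and 10.5 in ATG7 KO and 16.0, 16.2 and 15 in control libraries. Its groups did not overlap either, and its log2 change was 0.39 (edgeR adjusted p = 6e-05) in ATG7/SQSTM1 KO and -0.50 (edgeR adjusted p = 1.94e-06) in ATG7 KO, each against control. Per kilobase RSPO4 was the higher of the 2, at 7.63 CPM per kb in ATG7/SQSTM1 KO, 4.10 in ATG7 KO and 5.81 in control, against 0.680, 0.251 and 1.16 for RSPO2.

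ZNRF3, the ubiquitin ligase that removes Frizzleds, averaged 16.0 ± 0.719 CPM in ATG7/SQSTM1 KO, 15.7 ± 1.42 in ATG7 KO and 19.9 ± 1.83 in control (SD, n = 3 each). It fell in both knockouts, at -0.31 (edgeR adjusted p = 0.00306) in ATG7/SQSTM1 KO and -0.34 (edgeR adjusted p = 0.000742) in ATG7 KO. Its relative RNF43 was at 0 to 0.648 CPM and was called only between the knockouts, at -2.11 (edgeR adjusted p = 0.00292). It passed the filter only through the ATG7 KO libraries. RNF43 shares exon positions with SUPT4H1 on the same strand, at 57.7 CPM in ATG7 KO, so its value is uncertain.

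CTNNB1, which encodes beta-catenin, was the most abundant member per kilobase. It was at 365, 371 and 369.9 CPM in ATG7/SQSTM1 KO, 310.2, 309 and 319 in ATG7 KO and 342, 334 and 340.4 in control libraries, with no overlap between the groups. The changes were small, with a log2 change of 0.12 (SE 0.025, edgeR adjusted p = 0.000449) in ATG7/SQSTM1 KO against control, -0.12 (SE 0.025, edgeR adjusted p = 0.000419) in ATG7 KO against control and 0.24 (SE 0.025, edgeR adjusted p = 3.38e-08) between the knockouts. Beta-catenin is controlled mainly through its protein stability, which RNA does not measure.

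NKD1 (ENSG00000140807, chromosome 16, 50548330 to 50649249, plus strand), a Dishevelled-binding inhibitor of the pathway that is itself induced by beta-catenin, was at 33.7, 34.2 and 33.2 CPM in ATG7/SQSTM1 KO, 11.4, 11.7 and 11.1 in ATG7 KO and 15.4, 13.2 and 14.5 in control libraries. The groups did not overlap and the double knockout stood highest. It was 2.34-fold higher in ATG7/SQSTM1 KO than in control, a log2 change of 1.23 (SE 0.063, edgeR adjusted p = 2.37e-12), while in ATG7 KO against control it was -0.34 (SE 0.068, edgeR adjusted p = 0.000222). Its relative NKD2 was at 3.03, 3.40 and 2.64 CPM in ATG7/SQSTM1 KO, 1.94, 2.21 and 1.88 in ATG7 KO and 3.63, 4.55 and 3.20 in control libraries, and was not called in the double knockout, at -0.33 (edgeR adjusted p = 0.132) against control, but fell in ATG7 KO, at -0.91 (edgeR adjusted p = 0.000106). AXIN2, the most widely used beta-catenin target gene, averaged 5.72 ± 0.180 CPM in ATG7/SQSTM1 KO, 4.32 ± 0.481 in ATG7 KO and 5.12 ± 0.726 in control (SD, n = 3 each). It was not called against control in either knockout, at 0.16 (edgeR adjusted p = 0.357) in ATG7/SQSTM1 KO and -0.24 (edgeR adjusted p = 0.121) in ATG7 KO, and was called between them, at 0.41 (edgeR adjusted p = 0.0105). AXIN1, the constitutive scaffold of the destruction complex, was higher in both knockouts than in control, at 0.10 (edgeR adjusted p = 0.0384) in ATG7/SQSTM1 KO and 0.14 (edgeR adjusted p = 0.00474) in ATG7 KO.

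LEF1 (ENSG00000138795, chromosome 4, 108047545 to 108168956, minus strand), a nuclear partner of beta-catenin and one of its targets, was at 28.3, 29.9 and 26.9 CPM in ATG7/SQSTM1 KO, 12.6, 11.7 and 13.2 in ATG7 KO and 25.9, 28.9 and 29.8 in control libraries. The ATG7 KO libraries lay below all others, and the other 2 groups overlapped. It was 2.26-fold lower in ATG7 KO than in control, at -1.17 (SE 0.068, edgeR adjusted p = 3.44e-12), and 2.27-fold higher in ATG7/SQSTM1 KO than in ATG7 KO, at 1.18 (SE 0.068, edgeR adjusted p = 2.8e-12). Between ATG7/SQSTM1 KO and control the log2 change was 0.006 (SE 0.064, edgeR adjusted p = 0.955). TCF7L1, which acts largely as a repressor, was at 12.4, 11.7 and 13.4 CPM in ATG7/SQSTM1 KO, 6.41, 7.38 and 7.24 in ATG7 KO and 10.3, 11.8 and 9.96 in control libraries, a log2 change of -0.61 (edgeR adjusted p = 9.17e-06) in ATG7 KO against control. Its rise in ATG7/SQSTM1 KO against control, 0.23 (edgeR adjusted p = 0.0464), was lost in 8 of 13 alternatives, among them the replicate block (edgeR adjusted p = 0.0535) and DESeq2 (adjusted p = 0.1).

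TCF7L2 averaged 18.8 ± 0.426 CPM in ATG7/SQSTM1 KO, 20.2 ± 0.574 in ATG7 KO and 17.8 ± 0.814 in control (SD, n = 3 each), and rose slightly in ATG7 KO, at 0.18 (edgeR adjusted p = 0.0154). TCF7 averaged 8.59 ± 0.461 CPM in ATG7/SQSTM1 KO, 10.4 ± 0.124 in ATG7 KO and 9.52 ± 0.710 in control and was called only between the knockouts, at -0.27 (edgeR adjusted p = 0.00935), but its exons overlap those of the abundant SKP1 on the opposite strand, so its values are uncertain. Per kilobase the 4 factors summed to 11.8 ± 0.121 CPM per kb in ATG7/SQSTM1 KO, 7.96 ± 0.194 in ATG7 KO and 11.3 ± 0.408 in control (SD, n = 3 each). LEF1 made up 44.9% of that sum in ATG7/SQSTM1 KO, 29.3% in ATG7 KO and 46.6% in control. TCF7L2 made up 23.7% in ATG7/SQSTM1 KO, 37.8% in ATG7 KO and 23.5% in control, so it held the largest share in ATG7 KO and LEF1 held it in the other 2 groups.

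The genes around the members were followed through 6 lists. For ligand processing and secretion (11 genes, all tested), 2 rose (18.2%) and 4 fell (36.4%) in ATG7/SQSTM1 KO against control, where 19% and 19.6% of all tested genes were called in those directions. In ATG7 KO against control, 6 rose (54.5%) and 2 fell (18.2%), against 28.4% and 28.3% of all genes. Between the knockouts 3 were higher (27.3%) and 7 lower (63.6%), against 30.5% and 29.9%. None of these list shares was tested against that of all genes. The median log2 changes were -0.082, 0.24 and -0.29, against -0.008, -0.017 and 0.019 over all genes. WLS, which carries WNT to the cell surface, averaged 126 ± 5.71 CPM in ATG7/SQSTM1 KO, 194 ± 4.15 in ATG7 KO and 119 ± 2.17 in control (SD, n = 3 each), at 0.71 (edgeR adjusted p = 1.17e-13) in ATG7 KO against control. VPS35, VPS26A, VPS29 and SNX3 belong to the retromer machinery that recycles WLS. VPS35 averaged 382 ± 3.59 CPM in ATG7/SQSTM1 KO, 269.9 ± 6.06 in ATG7 KO and 211 ± 1.73 in control, with 0.85 (edgeR adjusted p = 3.83e-16) in ATG7/SQSTM1 KO and 0.35 (edgeR adjusted p = 1.36e-10) in ATG7 KO. VPS26A was at -0.063 (edgeR adjusted p = 0.259) in ATG7/SQSTM1 KO and rose in ATG7 KO at 0.41 (edgeR adjusted p = 2.63e-08), and SNX3 fell in ATG7/SQSTM1 KO at -0.13 (edgeR adjusted p = 0.00656) and rose in ATG7 KO at 0.24 (edgeR adjusted p = 4.49e-06). VPS29, named here after its values were seen, fell in ATG7/SQSTM1 KO at -0.34 (edgeR adjusted p = 1.11e-06) and was at -0.049 (edgeR adjusted p = 0.331) in ATG7 KO. Several of these counts moved with the processing. The 2 that rose in ATG7/SQSTM1 KO became 1 in DESeq2 and without ATG7/SQSTM1 KO replicate 3 or control replicate 3, and 4 at a minimum mean of 1 CPM. The 3 higher between the knockouts became 1 without ATG7/SQSTM1 KO replicate 3, and the 2 that fell in ATG7 KO became 1 in DESeq2 and without ATG7 KO replicate 1 or 2 or control replicate 1 or 3.

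Of the 20 genes of the destruction complex, Dishevelled and the membrane kinases, all tested, 5 rose and 3 fell in ATG7/SQSTM1 KO against control (25% and 15%, against 19% and 19.6% of all genes). In ATG7 KO against control, 7 rose and 10 fell (35% and 50%, against 28.4% and 28.3%), and between the knockouts 10 were higher and 8 lower (50% and 40%, against 30.5% and 29.9%). Median log2 changes, in the same order of comparisons, were -0.008, -0.13 and 0.074, against -0.008, -0.017 and 0.019 over all genes. The kinase genes GSK3A and CSNK1D and the scaffold AMER1 rose in ATG7 KO, at 0.48 (edgeR adjusted p = 1.95e-10), 0.53 (edgeR adjusted p = 2.15e-12) and 0.53 (edgeR adjusted p = 3.62e-10). TNKS, the tankyrase that marks AXIN for degradation, rose in ATG7/SQSTM1 KO at 0.21 (edgeR adjusted p = 7.84e-05) and fell in ATG7 KO at -0.27 (edgeR adjusted p = 2.54e-06), each against control.

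Of 17 nuclear partners of beta-catenin 16 were tested. Of these, 3 rose and 5 fell in ATG7/SQSTM1 KO against control (18.8% and 31.2%, against 19% and 19.6% of all genes). For ATG7 KO against control, 9 rose and 6 fell (56.2% and 37.5%, against 28.4% and 28.3%), and between the knockouts 5 were higher and 8 lower (31.2% and 50%, against 30.5% and 29.9%). The medians were -0.057, 0.17 and -0.10, against -0.008, -0.017 and 0.019 over all genes. CTNNBIP1, which blocks the binding of beta-catenin to TCF factors, averaged 37.9 ± 0.397 CPM in ATG7/SQSTM1 KO, 25.6 ± 1.19 in ATG7 KO and 43.6 ± 1.36 in control (SD, n = 3 each), at -0.77 (edgeR adjusted p = 5.9e-12) in ATG7 KO against control. The coactivators BCL9L and CREBBP fell in ATG7/SQSTM1 KO, at -0.20 (edgeR adjusted p = 0.000127) and -0.18 (edgeR adjusted p = 0.00205), and rose in ATG7 KO, at 0.31 (edgeR adjusted p = 1.85e-07) and 0.33 (edgeR adjusted p = 9.21e-07). The corepressor TLE1 rose in both, at 0.25 (edgeR adjusted p = 6.7e-05) in ATG7/SQSTM1 KO and 0.39 (edgeR adjusted p = 8.14e-08) in ATG7 KO. The 5 higher between the knockouts became 3 without ATG7/SQSTM1 KO replicate 1 or 2 or ATG7 KO replicate 1 or 3.

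Of 21 further secreted and membrane modulators 18 were tested. Among them 6 rose and 4 fell in ATG7/SQSTM1 KO against control (33.3% and 22.2%, against 19% and 19.6% of all genes). Against control, 6 rose and 9 fell in ATG7 KO (33.3% and 50%, against 28.4% and 28.3%), and between the knockouts 10 were higher and 5 lower (55.6% and 27.8%, against 30.5% and 29.9%). Their medians were 0.088, -0.15 and 0.24, against -0.008, -0.017 and 0.019 over all genes. IGFBP4, an insulin-like growth factor binding protein that also inhibits WNT signalling, averaged 153 ± 6.46 CPM in ATG7/SQSTM1 KO, 358 ± 12.8 in ATG7 KO and 129 ± 5.62 in control (SD, n = 3 each), at 1.47 (edgeR adjusted p = 2.17e-16) in ATG7 KO against control. ADGRA2, a receptor that acts with RECK in WNT7 signalling, was at 1.14 (edgeR adjusted p = 2.72e-14) in the same comparison. TSPAN12, an FZD4 partner, and the glypican GPC4 fell in ATG7/SQSTM1 KO, at -0.39 (edgeR adjusted p = 1.24e-05) and -0.28 (edgeR adjusted p = 1.29e-06), and in ATG7 KO, at -1.16 (edgeR adjusted p = 4.09e-13) and -0.91 (edgeR adjusted p = 4e-15).

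Of 26 genes described as beta-catenin/TCF targets in other tissues 20 were tested. The list leaves out LEF1, LGR5, NKD1, AXIN2 and DKK1, members that are also known as targets. NOTUM is also in the list for ligand processing and secretion, and APCDD1 among the further modulators, so these lists are not separate. In ATG7 KO against control LEF1, LGR5 and NKD1 were called lower, and AXIN2 and DKK1 were not called. In ATG7/SQSTM1 KO against control NKD1 and DKK1 were called higher, and LEF1, LGR5 and AXIN2 were not called. DKK1 passed the filter only through the ATG7/SQSTM1 KO libraries, so some of its difference was built into its selection. For the 20 tested genes of the list the counts were as follows. In ATG7/SQSTM1 KO against control, 4 rose and 6 fell (20% and 30%, against 19% and 19.6% of all genes). The 6 that rose and 7 that fell in ATG7 KO against control (30% and 35%) were near the shares over all genes, 28.4% and 28.3%. Between the knockouts 7 were higher and 8 lower (35% and 40%, against 30.5% and 29.9%). Medians were -0.12, -0.18 and 0.19, against -0.008, -0.017 and 0.019 over all genes. MYC averaged 1625 ± 31.5 CPM in ATG7/SQSTM1 KO, 1158 ± 10.5 in ATG7 KO and 1167 ± 7.93 in control (SD, n = 3 each), at 0.48 (edgeR adjusted p = 2.45e-13) in ATG7/SQSTM1 KO against control. CD44, an adhesion receptor, averaged 33.2 ± 2.46 CPM in ATG7/SQSTM1 KO, 75.2 ± 0.323 in ATG7 KO and 36.2 ± 2.07 in control, at 1.05 (edgeR adjusted p = 1.06e-13) in ATG7 KO against control. The neural adhesion genes L1CAM and NRCAM fell in both knockouts against control. L1CAM was at -0.29 (edgeR adjusted p = 4.07e-06) in ATG7/SQSTM1 KO and -1.25 (edgeR adjusted p = 4.01e-16) in ATG7 KO, and NRCAM at -0.56 (edgeR adjusted p = 1.05e-09) in ATG7/SQSTM1 KO and -1.01 (edgeR adjusted p = 1.74e-14) in ATG7 KO. The 4 that rose in ATG7/SQSTM1 KO became 2 in DESeq2 and without ATG7/SQSTM1 KO replicate 3 or control replicate 2 or 3, and the 7 that fell in ATG7 KO became 4 in DESeq2 and without ATG7 KO replicate 1 or 2 or control replicate 3.

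Of 23 planar cell polarity genes 22 were tested. There 6 rose and 3 fell in ATG7/SQSTM1 KO against control (27.3% and 13.6%, against 19% and 19.6% of all genes). In ATG7 KO, 8 rose and 7 fell against control (36.4% and 31.8%, against 28.4% and 28.3%), and between the knockouts 9 were higher and 10 lower (40.9% and 45.5%, against 30.5% and 29.9%). List medians were 0.068, 0.098 and -0.05, against -0.008, -0.017 and 0.019 over all genes. PRICKLE1, a core component of the polarity complex, rose in ATG7 KO at 1.03 (edgeR adjusted p = 6.97e-10), and RAC1, a small GTPase, at 0.38 (edgeR adjusted p = 1.42e-11). The polarity cadherin CELSR2 and the formin DAAM1, which links Dishevelled to RHOA, fell in ATG7 KO at -0.67 (edgeR adjusted p = 3.87e-12) and -0.50 (edgeR adjusted p = 1.02e-07).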

How the data were processed

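RNA of DMS273 cells was rRNA-depleted and libraries kept strand information through dUTP, per the labels' protocols. The aligner was HISAT2 and the genome build hg38, per the submitters' processing notes. How reads were assigned to genes, and whether strand was used, is not given in the sources used here. Deposited by the authors were whole-number counts, 1 column per library and without normalization, judged by the values. No library cell holds a 0, and the 362598 empty ones were taken as 0. A row numbering the columns (1) and an unlabelled column outside the libraries (1, holding 0 throughout) were dropped. Symbols are the files' own. Coordinates, strands and exon lengths came from GENCODE 29, in which 58503 gene IDs were found.

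The test was the robust quasi-likelihood F test of edgeR 4.0.16 in R 4.3.3. Genes were kept by filterByExpr (by group, minimum count 10), 18847 in all. TMM factors ran from 0.977 to 1.01. One model with a mean per group was fitted to the 9 libraries together, leaving 6 residual degrees of freedom, and the common biological coefficient of variation was 6.39%. Calls are Benjamini-Hochberg adjusted p under 0.05 over all tested genes. Standard errors are the log2 change divided by the square root of the F statistic. CPM values are TMM-scaled, and different genes are compared only per kilobase of union exon length. The scripts were tested on simulated data.

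Per-library values are given for members called in any comparison with a log2 change of at least 0.58 in size there and at least 1 CPM in the higher group, and for CTNNB1, LRP5 and LRP6, in all 27 genes. Up to 4 genes of each of the 6 pathway lists are named, those with the smallest p. The members, the pathway lists and the 5 marker lists were chosen with earlier results of these data known. Alternatives were RLE factors, library totals, no filter on counts, at least 1 CPM on average, DESeq2 1.42.0, a fit to 6 libraries, a replicate block, and leaving out each library in turn. Members with few counts are measured least precisely.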

Additional observations from a re-analysis of the deposited data

How the results depend on the processing

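Under 13 alternatives the counts of called members, and of all called genes, stayed within 1.5 times the values reported, in all 117 cases. Leaving out 1 library at a time gave 13 to 16 higher and 8 to 10 lower members in ATG7/SQSTM1 KO against control, 8 to 9 and 23 to 25 in ATG7 KO against control, and 28 to 31 and 10 to 11 between the knockouts. DESeq2 called 12 and 9, 9 and 23, and 28 and 10 in those comparisons. Of the named members' values, 1008 kept direction and side of the threshold, 22 lost the call, 8 gained it and 8 changed sign.

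The 8 sign changes concern uncalled values, each without 1 library, and the cause was not tested. Leaving out 1 library at a time gave, in ATG7/SQSTM1 KO against control, log2 changes of -0.14 to 0.006 for WNT5A (the highest without ATG7/SQSTM1 KO replicate 3), -0.20 to 0.035 for WNT5B and -0.30 to 0.12 for WNT6 (both highest without control replicate 3), -0.037 to 0.002 for LRP5 (without control replicate 1), and -0.047 to 0.048 for LEF1 (-0.047 without control replicate 1, -0.035 without ATG7/SQSTM1 KO replicate 2). In ATG7 KO against control the range was -0.57 to 0.010 for LGR6 (without ATG7 KO replicate 3) and -1.36 to 0.23 for DKK1 (without ATG7 KO replicate 2). Calls gained were LGR5 in ATG7/SQSTM1 KO against control under 3 alternatives, and in ATG7 KO against control WNT2B under 3 (library totals, a minimum mean of 1 CPM, without control replicate 2) and WNT8B under 2 (library totals, without ATG7 KO replicate 3). Of the pathway list counts 446 stayed within 1.5 times and 22 did not: for ligand processing and secretion 2 became 1 or 4 and 3 became 1, for the nuclear partners 5 became 3, and for the beta-catenin/TCF targets 4 became 2 and 7 became 4. DKK1 and WNT8B fall out under a minimum mean of 1 CPM and have 12 alternatives per comparison. The exception is DKK1 in ATG7 KO against control, which has 11, so a further alternative gave no adjusted p there.

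No sign of pairing by replicate number was seen: correlations of same-numbered deviations ran from -0.0613 to 0.0234. Libraries with different numbers were not correlated for reference, so these values do not settle whether same-numbered libraries were handled together. With the replicate block 15 members were higher and 10 lower in ATG7/SQSTM1 KO against control, 9 and 23 in ATG7 KO against control, and 30 and 10 between the knockouts, with 7137, 10564 and 11262 genes called in all.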
